A study of Homo sapiens with 8 samples.

Results

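The interferon-stimulated genes are the genes whose transcription rises when a cell receives interferon, and 52 of them, listed by name, were followed across 8 microarrays of HaCaT cells, a spontaneously immortalized human keratinocyte line. Of the 52 genes, 51 had a probe set named with a single gene symbol, and STAT2 was not analysed here. Each gene was represented by its brightest such probe set, and 50 genes reached a scaled signal of 50 on at least 1 array, out of 9675 genes that did so among the 19775 genes named in the series. BST2, the membrane protein tetherin, was the gene that did not, with its highest signal of 36.2 on the control siRNA array. Signals are MAS5 intensities scaled so that the trimmed mean of each array is 100, and for any log2 value a signal below 20 was set to 20, so that changes of dim genes are understated.

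Of the 8 groups, 6 came from cells that carried an adenoviral vector and 2 from cells transfected with an siRNA. With 1 array per group, there are no replicates of any group. The vectors encoded HRAS N116Y, a dominant negative RAS, HRAS G12V, a constitutively active RAS, or LacZ, the bacterial enzyme used as the control, and each was given with 5 ng/ml TGF-beta3 for 24 h and without it. The siRNAs were directed against p53 or were a control, and neither siRNA array had TGF-beta. All 6 adenovirus arrays, LacZ included, are from infected cells of 1 line, and uninfected cells were not analysed here. Groups follow the sample titles and the TGF-beta label, although the source label contradicts these on TGF-beta for the adenovirus arrays. If the source label were right, every direction given below for TGF-beta3 would turn round, and the arrays named as with and without it would change places. COL1A1, a collagen gene known to be induced by TGF-beta, was higher on the arrays that the titles give as treated, by 2.35 ± 0.20 on the log2 scale (SE, n = 6 arrays, limma adjusted p = 1.86e-05), and the laminin gene LAMB3 by 1.92.

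Type I interferons bind the receptor chains IFNAR1 and IFNAR2, and the kinases JAK1 and TYK2 then phosphorylate STAT proteins. Phosphorylated STAT proteins join IRF9 in the complex ISGF3, which binds the interferon-stimulated response element (ISRE) of many promoters, and the gamma-activated site (GAS) is another element through which interferons act. IRF1 and IRF7 are themselves induced and act on similar elements. The products of these genes block viral translation and replication, mark proteins with the ubiquitin-like ISG15, or restrain growth, and keratinocytes are known to keep a basal level of many of them.

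The promoters of the genes that carry the results below are shown first, as the 180 bases just before the RefSeq start of transcription on GRCh38.p14, 5′ to 3′ along the strand of the gene. Capitals mark the ISRE core, which is TTTC, any 2 bases and TTTC again, or GAAA, any 2 bases and GAAA when it lies on the other strand, and overlapping copies run together. RSAD2 and IFIT3 had the largest called changes among genes with a promoter window in the HRAS N116Y and TGF-beta3 fits, and IFIH1 was called in neither; IFIT1 and ISG15 were added after their values were seen. RSAD2 and IFIT3 have 2 windows each in the table, of which 1 is printed. Only windows with an ISRE core or a GAS motif were eligible for printing, and the other RSAD2 window held neither.
RSAD2 (chr2:6877597-6877776, plus strand): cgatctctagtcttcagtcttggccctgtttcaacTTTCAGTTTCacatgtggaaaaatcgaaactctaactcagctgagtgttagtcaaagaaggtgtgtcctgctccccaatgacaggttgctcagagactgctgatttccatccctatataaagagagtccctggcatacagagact
IFIT3 (chr10:89327817-89327996, plus strand): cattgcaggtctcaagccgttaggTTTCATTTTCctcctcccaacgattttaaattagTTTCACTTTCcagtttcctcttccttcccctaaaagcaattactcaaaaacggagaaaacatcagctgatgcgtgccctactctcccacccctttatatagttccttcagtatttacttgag
IFIT1 (chr10:89392443-89392622, plus strand): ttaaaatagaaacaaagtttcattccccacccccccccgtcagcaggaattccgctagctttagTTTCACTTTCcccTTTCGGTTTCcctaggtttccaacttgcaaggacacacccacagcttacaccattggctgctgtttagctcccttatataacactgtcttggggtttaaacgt
ISG15 (chr1:1013317-1013496, plus strand): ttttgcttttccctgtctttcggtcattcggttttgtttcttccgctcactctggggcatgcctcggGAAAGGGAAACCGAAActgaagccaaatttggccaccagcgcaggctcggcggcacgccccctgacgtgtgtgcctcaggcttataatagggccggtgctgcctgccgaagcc
IFIH1 (chr2:162318685-162318864, minus strand): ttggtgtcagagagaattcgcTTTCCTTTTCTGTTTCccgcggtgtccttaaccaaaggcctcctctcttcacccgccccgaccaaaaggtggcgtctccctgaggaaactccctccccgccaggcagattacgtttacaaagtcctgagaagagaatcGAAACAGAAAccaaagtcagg
IRF1 and IRF9 had no ISRE core in their windows, and here capitals mark the GAS motif TTCNNNGAA, which reads the same on both strands; both were also added after their values were seen.
IRF1 (chr5:132490774-132490953, minus strand): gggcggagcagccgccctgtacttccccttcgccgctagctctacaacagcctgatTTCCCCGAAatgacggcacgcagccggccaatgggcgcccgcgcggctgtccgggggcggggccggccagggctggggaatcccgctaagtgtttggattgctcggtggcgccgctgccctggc
IRF9 (chr14:24161085-24161264, plus strand): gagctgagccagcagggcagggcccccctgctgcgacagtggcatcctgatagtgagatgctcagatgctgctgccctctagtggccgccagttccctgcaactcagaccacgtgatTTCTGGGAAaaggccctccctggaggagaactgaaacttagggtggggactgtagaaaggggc
Of the 52 genes, 42 had a window of 250 bases before the start, and 24 of them (57.1%) held at least 1 ISRE core on either strand, against 1014 of 27305 genes of the table (3.71%). GAS was found in 12 of the 42 (28.6%), against 8.09% of all genes. The ISRE core was present in 8 of 13 genes with a window that fell with TGF-beta3, in 4 of 10 that rose with HRAS N116Y against LacZ, and in 7 of 14 called in neither. A match describes letters and not binding.

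The share of probe sets at a signal of 50 lay between 28.0% and 29.9% on the 8 arrays. The signal of HRAS itself, the gene the vectors carry, was 58.1 and 67.1 on the arrays labelled HRAS N116Y with and without TGF-beta3 and 86.1 and 108.8 on those labelled HRAS G12V, against 287.0 and 315.7 on those labelled LacZ. HRAS was thus lower, not higher, with both HRAS vectors. The sources used here do not say whether its probe set lies within the vectors' inserts, so this signal does not check the labels, and every vector named below is the one on the label. All 9 named keratinocyte markers were above 50 on all 8 arrays, and their summed signal was between 23024 and 49389. Of 10 leukocyte markers 1 reached 50 on an array, HLA-DRA, and the pan-leukocyte marker PTPRC was at most 3.30; 0 of 5 endothelial markers reached 50. In bulk RNA, fewer cells expressing a gene and less of its RNA per cell cannot be told apart.

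**Figure D1:**
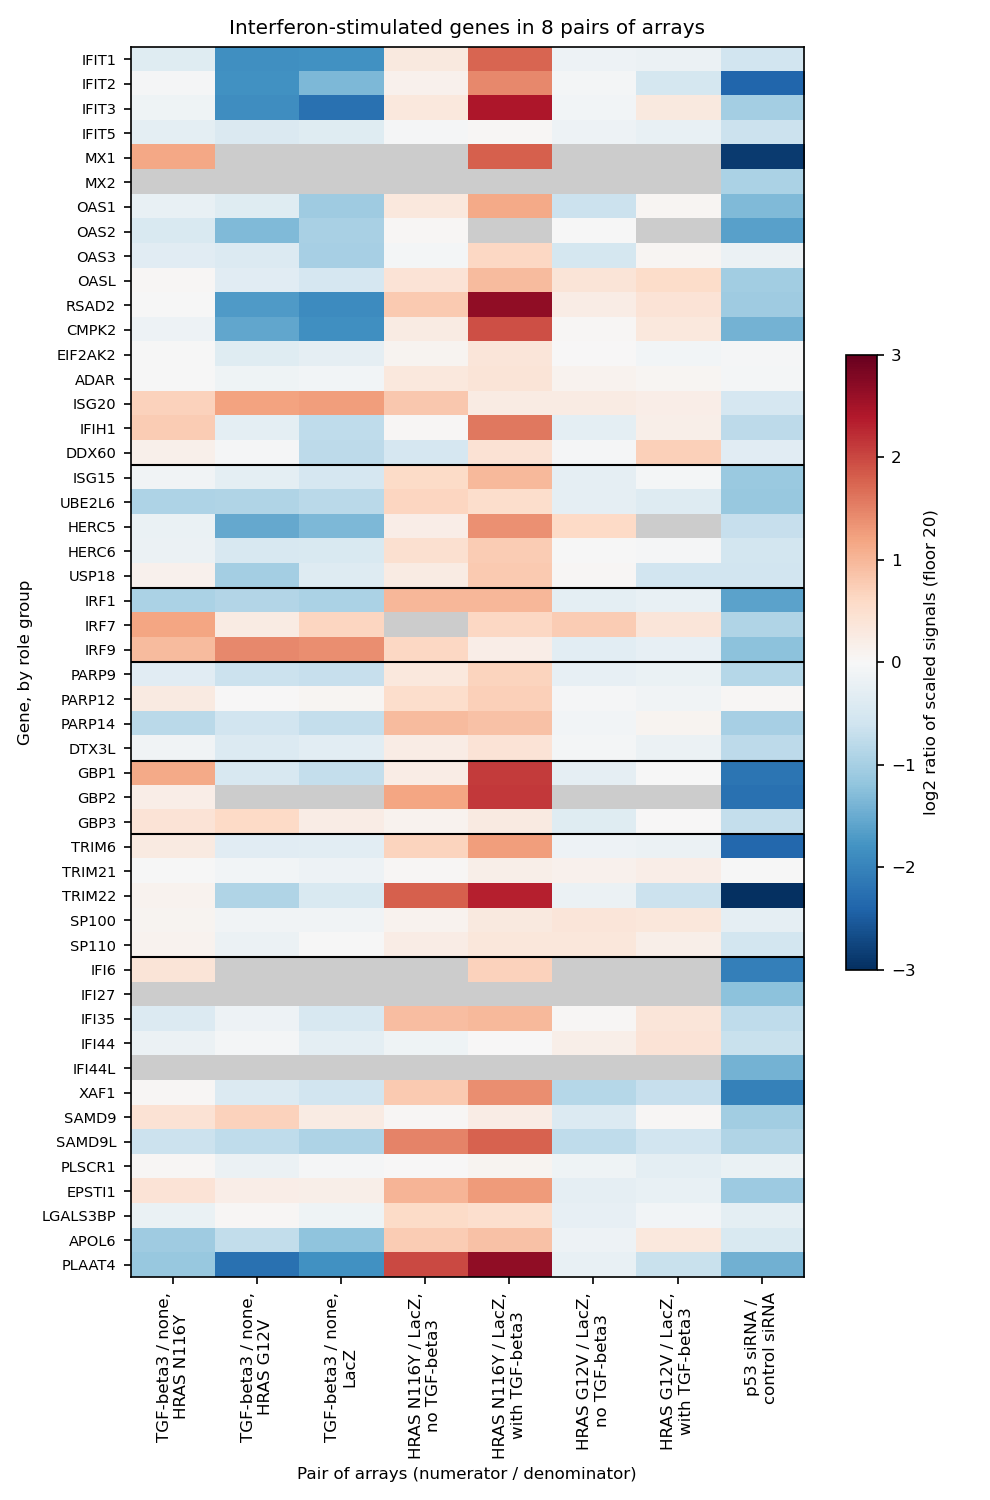
Log2 ratios of the interferon-stimulated genes (rows, grouped by role) in 8 pairs of single arrays (columns), TGF-beta3 over none within each vector, each HRAS vector over LacZ and p53 siRNA over control siRNA, with red for higher, blue for lower and grey where neither array of the pair reached a signal of 50. The HRAS N116Y over LacZ columns are mostly red, the HRAS G12V over LacZ columns pale and the p53 siRNA column blue, and the blue block of IFIT genes under TGF-beta3 is pale in the HRAS N116Y column.

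With HRAS N116Y, some of the genes rose against LacZ and none fell. In the fit of the 6 adenovirus arrays, 14 of 45 tested genes rose (31.1%) and 0 fell at an adjusted p under 0.05, while 1.58% of all 8982 tested genes rose and 0.846% fell. The median log2 change was 0.62 over the 45 genes and 0.018 over all genes, and 42 of the 45 were above 0. At an unadjusted p under 0.05, 30 of the 45 were higher and 0 lower, against 808 and 523 of all 8982 genes. The fit was limma with vector and TGF-beta state as additive terms, p-values were adjusted by the Benjamini-Hochberg method over all 8982 genes, and every SE below comes from it with n = 6 arrays. The other 5 of the 50 genes, MX1, MX2, IFI6, IFI27 and IFI44L, reached 50 on fewer than 2 of the 6 arrays and were not tested there. GBP2 passed this filter through the HRAS N116Y arrays alone and OAS2 through the arrays without TGF-beta3 alone, so GBP2 had to be higher with HRAS N116Y and OAS2 lower with TGF-beta3.

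The largest rise was that of PLAAT4, an acyltransferase known as a tumour suppressor induced by retinoids and interferon. Its signal was 316 with TGF-beta3 and 690 without it on the HRAS N116Y arrays, against 50.3 and 176 on the LacZ arrays, a log2 change of 2.31 ± 0.24 (SE, adjusted p = 0.00105). TRIM22, an antiviral ubiquitin ligase, had 350 and 328 with HRAS N116Y, against 69.7 and 95.1 with LacZ (2.06 ± 0.24, adjusted p = 0.00158). Both HRAS N116Y arrays lay above both LacZ arrays for these genes. SAMD9L, which restrains translation and growth, had 476 and 749 with HRAS N116Y, against 140 and 266 with LacZ, and rose by 1.63 ± 0.16 (adjusted p = 0.000528). EPSTI1, first described at the contact of epithelium and stroma, had 925 and 697 with HRAS N116Y, against 385 and 343 with LacZ (1.15 ± 0.14, adjusted p = 0.00203). XAF1, a pro-apoptotic partner of the inhibitor XIAP, had 229 and 224 with HRAS N116Y, against 86.9 and 129 with LacZ (1.10 ± 0.21, adjusted p = 0.0211). The HRAS N116Y and LacZ arrays did not overlap for SAMD9L, EPSTI1 or XAF1 either. APOL6 and IFI35 rose by 0.82 and 0.95 on the log2 scale, and TRIM6, a ubiquitin ligase that acts in interferon signalling, by 0.96.

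Among the transcription factors 1 of 3 rose with HRAS N116Y. IRF1 had 194 with TGF-beta3 and 372 without it on the HRAS N116Y arrays, against 96.7 and 186 on the LacZ arrays, and rose by 1.00 ± 0.17 (adjusted p = 0.0126). Its log2 ratio to LacZ was 1.00 at each TGF-beta state, and with HRAS N116Y and TGF-beta3 it was close to that with LacZ alone. IRF9 and IRF7 had log2 changes of 0.41 and 0.36 (adjusted p = 0.348 and adjusted p = 0.594). In the ISG15 pathway, ISG15 itself had 904 and 977 with HRAS N116Y, against 462 and 658 with LacZ, and rose by 0.77 ± 0.14 (adjusted p = 0.0193). UBE2L6, its conjugating enzyme, rose by 0.59, while the ligases HERC5 and HERC6 and the deconjugating protease USP18 had changes of 0.79, 0.62 and 0.52 that did not pass.

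Of 15 antiviral effectors and RNA sensors tested, 1 rose. RSAD2, the enzyme viperin, had 293 and 296 with HRAS N116Y, against 46.3 and 172 with LacZ (1.72 ± 0.36, adjusted p = 0.0346), so most of its difference lay in the TGF-beta3 pair. IFIT3 and IFIT1 had log2 changes of 1.37 and 1.02 with adjusted p = 0.0927 and adjusted p = 0.106. GBP2, an interferon-induced GTPase, had 87.7 and 76.5 with HRAS N116Y, against 18.0 and 33.8 with LacZ, the first of these below the floor, and rose by 1.66 ± 0.34 (adjusted p = 0.0344). PARP14, an ADP-ribosyltransferase, had 112 and 196 with HRAS N116Y, against 61.6 and 101 with LacZ, and rose by 0.91 ± 0.20 (adjusted p = 0.0400), and the other PARP genes and DTX3L did not pass. ADAR, EIF2AK2 (the kinase PKR), DDX60, IFI44, PLSCR1, SP100, SP110 and TRIM21 had log2 changes between -0.065 and 0.35.

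**Figure D2:**
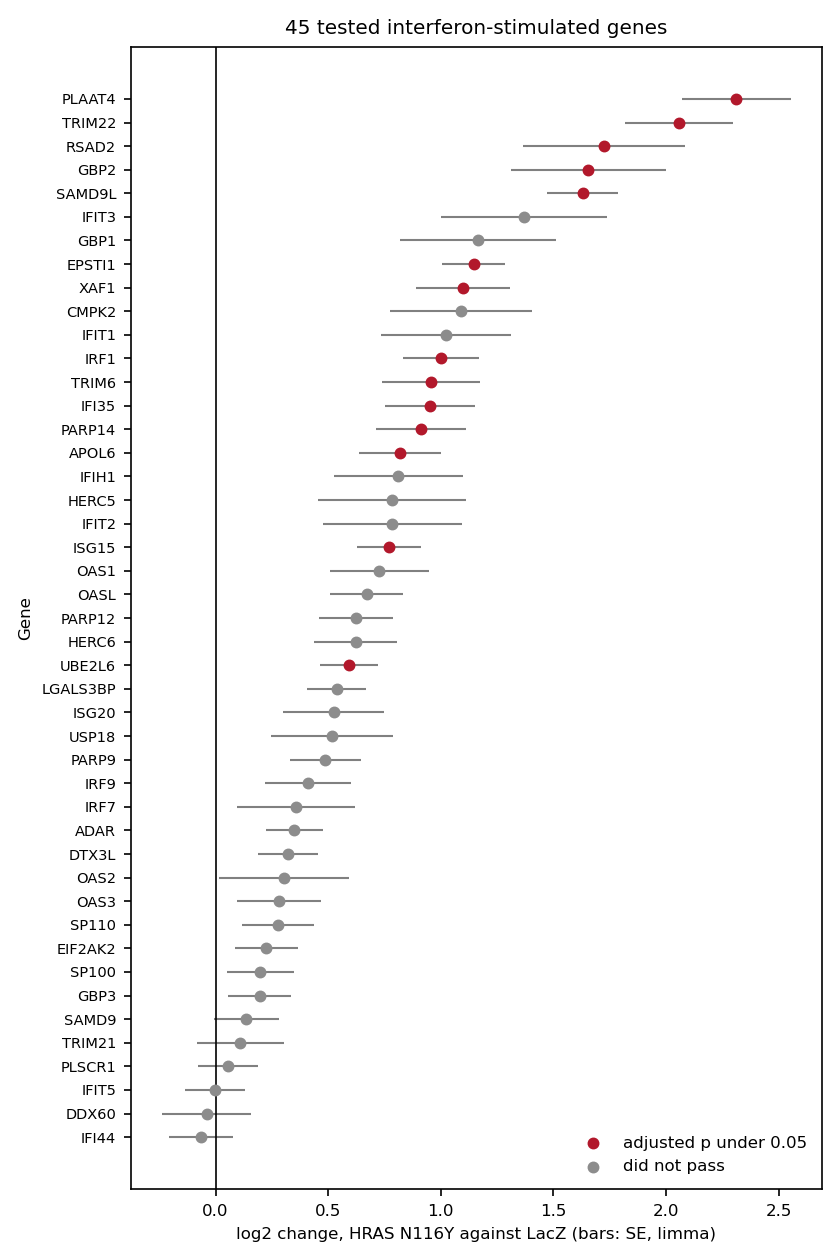
Log2 change of each of the 45 tested interferon-stimulated genes with HRAS N116Y against LacZ from the fit of 6 arrays (horizontal axis), with bars of 1 SE and red points for the 14 genes that rose at an adjusted p under 0.05. PLAAT4, TRIM22, RSAD2, GBP2 and SAMD9L lie farthest to the right, and 42 of 45 points are above 0.

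The number of calls in this comparison moved with the processing: it was 14 here and between 1 and 22 under the alternatives, and SAMD9L passed in all 7 alternatives that kept the 6 arrays and both terms of the fit. PLAAT4, TRIM22, EPSTI1 and IRF1 passed in 6 of 7, RSAD2 in 2 of 7, APOL6 and TRIM6 in 1 of 7 and GBP2 in 1 of 5. The summed leukocyte markers were 68.9 and 58.2 with HRAS N116Y, against 42.2 and 61.6 with LacZ. The summed signal of the fibroblast markers was 417 and 180 with HRAS N116Y, against 229 and 88.3 with LacZ. Of the 7 markers 2 reached 50, COL1A1 and COL3A1. COL3A1 had 144 and 107 with HRAS N116Y, against 16.1 and 17.8 with LacZ. Among the adenovirus arrays it reached 50 on those of HRAS N116Y alone, so it had to be higher with that vector. COL1A1 had a log2 change of 0.40 that did not pass (limma adjusted p = 0.509). The other fibroblast markers were at most 21.7 on any array, and PDGFRA and PDGFRB were below 20 on all 8. The part of the leukocyte and fibroblast markers in the result was not tested.

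The single pairs of arrays split this by TGF-beta state. Without TGF-beta3, 5 of 44 genes at 50 on either array were at least 2-fold higher with HRAS N116Y than with LacZ and 0 were lower, against 1.18% and 0.738% of 8803 genes. With TGF-beta3, 18 of 46 were at least 2-fold higher and 0 lower, against 3.03% and 1.59% of 8932 genes, and all 46 ratios were above 0. The 5 genes of the first pair, EPSTI1, GBP2, PLAAT4, SAMD9L and TRIM22, were also among the 18 of the second (5 of 5 and 5 of 18). The 13 others were CMPK2, GBP1, HERC5, IFIH1, IFIT1, IFIT2, IFIT3, IRF1, MX1, OAS1, RSAD2, TRIM6 and XAF1. GBP2 in both pairs, and HERC5, MX1 and RSAD2 in the second, reached 50 on the HRAS N116Y array alone and so had to be higher there (1 of the 5 and 4 of the 18). These counts rest on 1 array against 1 array and were not tested.

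HRAS G12V gave 0 rises and 0 falls against LacZ among the 45 genes by limma, where 0% of all genes rose and 0.0445% fell. At an unadjusted p under 0.05 it had 2 of the 45 genes higher and 3 lower, against 305 and 269 of all 8982 genes. The SE of these 45 changes lay between 0.13 and 0.37 with a median of 0.19 on the log2 scale, so small changes could not be told from 0. The median log2 change was -0.14 over the 45 genes and 0.0091 over all genes. XAF1 had 53.5 and 71.4 with HRAS G12V, against 86.9 and 129 with LacZ (-0.78 ± 0.21, adjusted p = 0.541), and SAMD9L had 93.4 and 158, against 140 and 266 with LacZ (-0.67 ± 0.16, adjusted p = 0.485). The XAF1 signals did not overlap between these vectors, those of SAMD9L did, and neither change passed. In the single pairs 0 of 44 genes without TGF-beta3 and 0 of 42 with it were 2-fold apart in either direction. In those pairs 0.173% and 0.25% of all genes were at least 2-fold higher, and 0.231% and 0.341% were at least 2-fold lower.

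The 2 HRAS vectors were also set against each other. Of the 45 genes, 18 rose with HRAS N116Y against HRAS G12V and 0 fell, while 3.8% of all genes rose and 2.58% fell. At an unadjusted p under 0.05 limma had 31 of the 45 higher and 1 lower, against 1025 and 897 of all 8982 genes. The median log2 difference was 0.71. This comparison shares the HRAS N116Y arrays with the one against LacZ, so the 2 lists are not independent. PLAAT4 had 316 and 690 with HRAS N116Y, against 31.9 and 150 with HRAS G12V (2.75 ± 0.24, adjusted p = 0.000163). TRIM22 had 350 and 328, against 44.7 and 84.1 with HRAS G12V (2.47 ± 0.24, adjusted p = 0.000302), and SAMD9L rose by 2.30 ± 0.16 (adjusted p = 5.68e-05). IFIT1, OAS1, PARP9, PARP12 and LGALS3BP, a secreted glycoprotein, rose in this comparison by 0.69 to 1.19, and IFI35, which rose against LacZ, did not pass here (adjusted p = 0.0529). Of the 18 calls, 8 held under all the alternatives that kept the 6 arrays and both terms.

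With TGF-beta3, more of the genes fell than rose. Averaged over the 3 vectors in the same fit, 17 of 45 genes fell (37.8%) and 5 rose (11.1%), against 17.4% and 16.3% of all 8982 tested genes. By the source label these would be 17 rises and 5 falls, with PLAAT4 as the largest rise and IRF9 as the largest fall. The median log2 change was -0.31 over the 45 genes and -0.0059 over all genes. The falls lay mostly among the antiviral effectors, where 9 of 15 fell and 1 rose.

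The IFIT proteins bind foreign RNA or support the binding, and all 4 measured genes fell with TGF-beta3. IFIT3 had 2022 with HRAS N116Y, 463 with HRAS G12V and 376 with LacZ in the presence of TGF-beta3, against 2201, 1684 and 1776 on the same vectors without it (-1.41 ± 0.30, adjusted p = 0.00465). IFIT1 had 1108 with HRAS N116Y, 291 with HRAS G12V and 329 with LacZ under TGF-beta3, against 1423, 1042 and 1159 without it (-1.34 ± 0.24, adjusted p = 0.00154). IFIT2 had 1025, 261 and 377 with TGF-beta3 on these vectors, against 1053, 922 and 963 without it (-1.07 ± 0.25, adjusted p = 0.00809). For these 3 genes the low arrays were those of HRAS G12V and LacZ with TGF-beta3, and the HRAS N116Y array with TGF-beta3 stood with the untreated arrays. RSAD2 and its neighbour CMPK2, a mitochondrial nucleotide kinase, fell by 1.21 and 1.18 and showed the same split. RSAD2 had 293 with HRAS N116Y, 61.7 with HRAS G12V and 46.3 with LacZ under TGF-beta3, against 296, 202 and 172 without it. CMPK2 had 340, 111 and 89.0 with TGF-beta3 on these vectors, against 377, 324 and 318 without it. Both genes were thus lower with TGF-beta3 on the HRAS G12V and LacZ arrays and nearly level on the HRAS N116Y arrays.

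The 3 oligoadenylate synthases, whose product activates RNase L, all fell, OAS2 by 0.92, OAS3 by 0.58 and OAS1 by 0.55 on the log2 scale. The related gene OASL had a change of -0.27 (adjusted p = 0.132). In the ISG15 pathway HERC5 had 63.1 with HRAS N116Y, 32.3 with HRAS G12V and 24.5 with LacZ under TGF-beta3, against 72.3, 94.2 and 62.7 without it, and fell by 1.03 ± 0.27 (adjusted p = 0.0130), while UBE2L6 fell by 0.88. UBE2L6 had 796 with HRAS N116Y, 421 with HRAS G12V and 550 with LacZ under TGF-beta3, against 1509, 791 and 959 without it (SE 0.11, adjusted p = 0.000141), with log2 ratios between -0.92 and -0.80 on the 3 vectors. ISG15, HERC6 and USP18 had changes between -0.42 and -0.31 that did not pass. PARP14 had 112 with HRAS N116Y, 64.8 with HRAS G12V and 61.6 with LacZ under TGF-beta3, against 196, 96.0 and 101 without it, and fell by 0.70 ± 0.16 (adjusted p = 0.00734). PARP9 fell by 0.56.

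PLAAT4 had the largest fall of the set by the titles. It had 316 with HRAS N116Y, 31.9 with HRAS G12V and 50.3 with LacZ under TGF-beta3, against 690, 150 and 176 without it (-1.72 ± 0.20, adjusted p = 0.000107). It was at least 2-fold lower with TGF-beta3 in each of the 3 vectors. APOL6, an apolipoprotein L family member, fell by 1.00 ± 0.15 (adjusted p = 0.00051) and SAMD9L by 0.78 ± 0.13 (adjusted p = 0.000969). IRF1 had 194 with HRAS N116Y, 82.9 with HRAS G12V and 96.7 with LacZ under TGF-beta3, against 372, 152 and 186 without it (-0.92 ± 0.14, adjusted p = 0.000537). The log2 ratio of IRF1 lay between -0.95 and -0.87 in the 3 vectors.

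The 5 genes that rose with TGF-beta3 included both other transcription factors of the set. IRF9, the DNA-binding subunit of ISGF3, had 270 with HRAS N116Y, 198 with HRAS G12V and 236 with LacZ under TGF-beta3, against 140, 72.5 and 90.4 without it (1.26 ± 0.15, adjusted p = 0.000161), and its 2 groups of 3 arrays did not overlap. ISG20, an RNA exonuclease, had 132, 129 and 112 with TGF-beta3 on these vectors, against 81.7, 55.6 and 46.6 without it (1.06 ± 0.18, adjusted p = 0.0014). IRF7, which drives interferon-alpha transcription, rose by 0.69 ± 0.21 (adjusted p = 0.0292) and SAMD9 by 0.45. GBP3, another guanylate-binding GTPase, had 1112, 922 and 915 with TGF-beta3 on these vectors, against 842, 605 and 780 without it (0.41 ± 0.11, adjusted p = 0.0171). ISG20 and IRF9 thus moved against IRF1, the IFIT genes and RSAD2 on the same arrays.

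**Figure D3:**
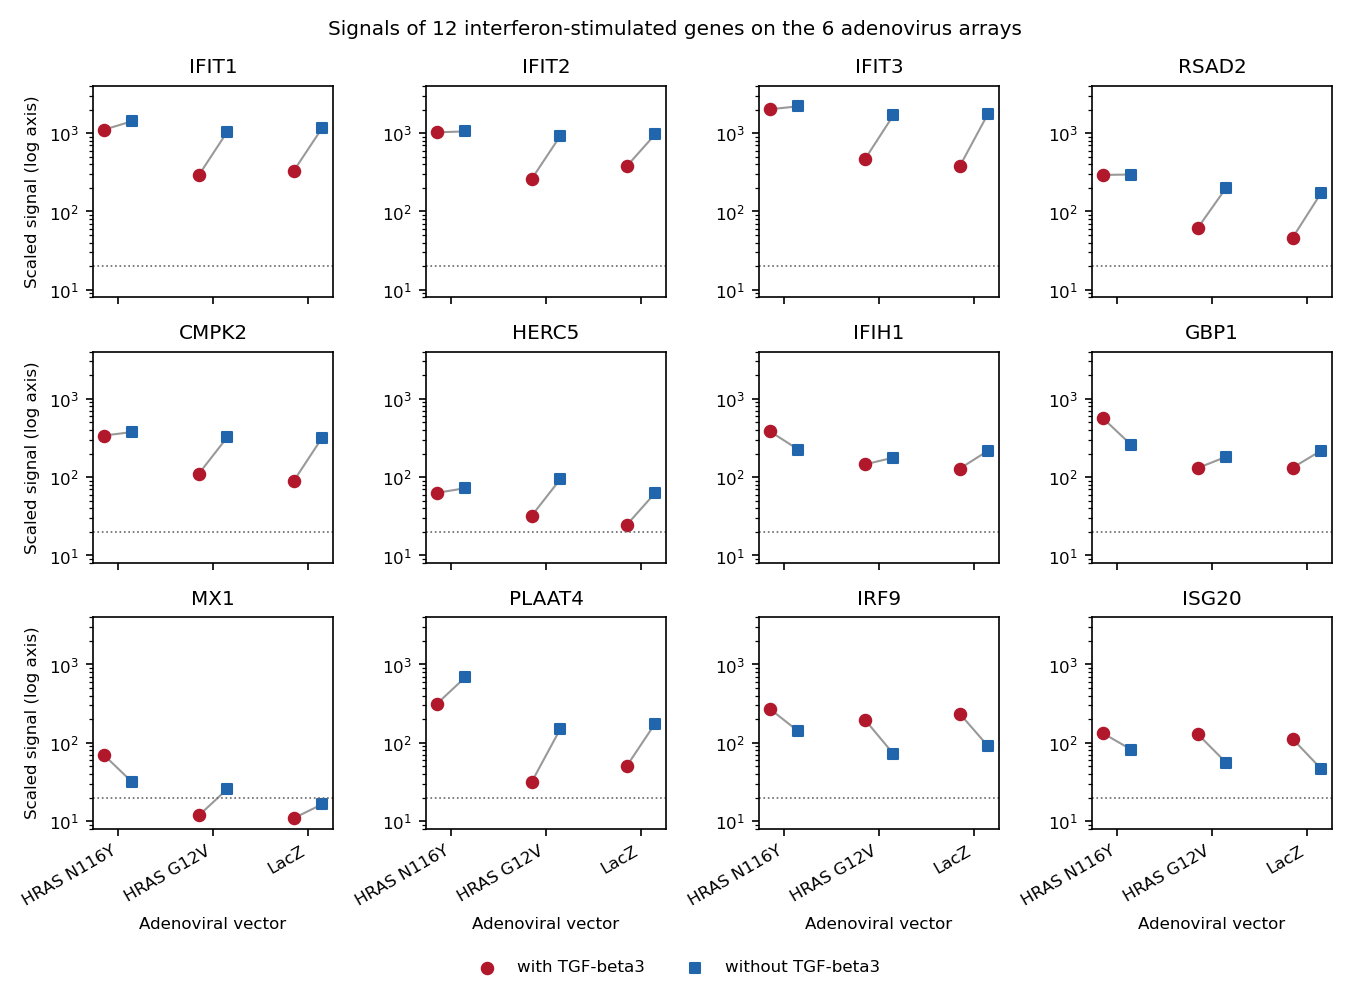
Scaled signals (log axis) of 12 interferon-stimulated genes on the 6 adenovirus arrays, by vector, with TGF-beta3 and without it, 1 point per array. The dotted line is the floor of 20. IFIT3 and RSAD2 are nearly level with HRAS N116Y (2022 and 2201 for IFIT3) and low with TGF-beta3 on the other vectors, PLAAT4 is lower with TGF-beta3 on all 3, and IRF9 is higher on all 3.

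Of the 17 genes that fell with TGF-beta3 and the 14 that rose with HRAS N116Y against LacZ, 7 were in both lists, which is 41.2% of the first and 50% of the second: APOL6, IRF1, PARP14, PLAAT4, RSAD2, SAMD9L and UBE2L6. Both comparisons come from the same 6 arrays, and the overlap of such lists over all genes was not counted. Without the HRAS N116Y pair of arrays 27 genes fell with TGF-beta3 in place of 17, and without the HRAS G12V pair 3 rose in place of 5. Without the vector as a term, 2 genes fell and 2 rose. Of the 22 calls, 10 held under all the alternatives that kept the 6 arrays and both terms, and without the filter on low signals IFIT2, IFIT3, RSAD2 and CMPK2 did not pass (adjusted p = 0.0644, adjusted p = 0.0510, adjusted p = 0.0696 and adjusted p = 0.0503). As a measured fact beside these falls, 8 of 9 keratinocyte markers rose with TGF-beta3, against 16.3% of all tested genes. Their summed signal with TGF-beta3 was 43670, 49389 and 48143 on the HRAS N116Y, HRAS G12V and LacZ arrays. Without it, their sum was 28446, 31155 and 26444. The summed fibroblast markers were 417, 320 and 229 with TGF-beta3 on these vectors, against 180, 85.8 and 88.3 without it. COL1A1, named above as known to be induced by TGF-beta, made up 253, 288 and 164 of the sums with TGF-beta3. It rose by 2.35 on the log2 scale, and the rise of the sum lay mostly in this gene. COL3A1 had a log2 change of 0.14 that did not pass (limma adjusted p = 0.677). MITF, the 1 tested melanocyte marker, fell by 0.59 (adjusted p = 0.0232). The part of these markers in the result was not tested.

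The single pairs give the response within each vector. With TGF-beta3, 9 of 44 genes were at least 2-fold lower and 2 higher in HRAS G12V cells, against 4.54% and 5.53% of 8900 genes, and 9 of 44 were lower and 2 higher in LacZ cells, against 4.4% and 4.22% of 8873 genes. CMPK2, HERC5, IFIT1, IFIT2, IFIT3, PLAAT4 and RSAD2 were among the 9 lower genes of both vectors. Of each 9, HERC5, OAS2, PLAAT4 and USP18 in HRAS G12V cells (4 genes) and HERC5 and RSAD2 in LacZ cells (2 genes) reached 50 on the untreated array alone, so they had to be lower, and ISG20 in LacZ cells reached 50 on the treated array alone. In HRAS N116Y cells 2 of 47 genes were at least 2-fold lower, APOL6 and PLAAT4, and 3 higher, GBP1, IRF7 and MX1, against 4.94% and 4.9% of 9020 genes. IRF7 and MX1, 2 of these 3, reached 50 on the treated array alone and so had to be higher. The median log2 ratio of TGF-beta3 to none was -0.017 in HRAS N116Y cells, -0.39 in HRAS G12V cells and -0.49 in LacZ cells.

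The difference of 2 such responses, HRAS N116Y minus LacZ, was at least 1 on the log2 scale for 9 of 47 genes and at most -1 for 0, against 2.35% and 1.95% of 9229 genes. The 9 were IFIT3 (2.12), RSAD2 (1.88), GBP1 (1.86), CMPK2 (1.69), IFIH1 (1.54), IFIT1 (1.46), IFIT2 (1.31), HERC5 (1.16) and MX1 (1.16). Of the 4 arrays behind this, MX1 reached 50 on that of HRAS N116Y with TGF-beta3 alone (69.8), and both its LacZ signals were below the floor of 20, so its value was fixed in direction by the filter. IFIT3, for one, had a TGF-beta3 log2 ratio of -0.12 in HRAS N116Y cells and -2.24 in LacZ cells. Of the 17 genes that fell in the average over vectors, 15 had a ratio that was higher with HRAS N116Y than with LacZ, the exceptions being PARP14 and UBE2L6. The share of all genes with a higher ratio was not counted. The median difference of responses was 0.28 over the 47 genes and -0.012 over all genes. For HRAS G12V minus LacZ the counts were 0 and 0 of 44 genes, against 0.715% and 0.583% of 9093 genes. With 1 array a group the design leaves no degrees of freedom for this difference, so it was not tested.

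**Figure D4:**
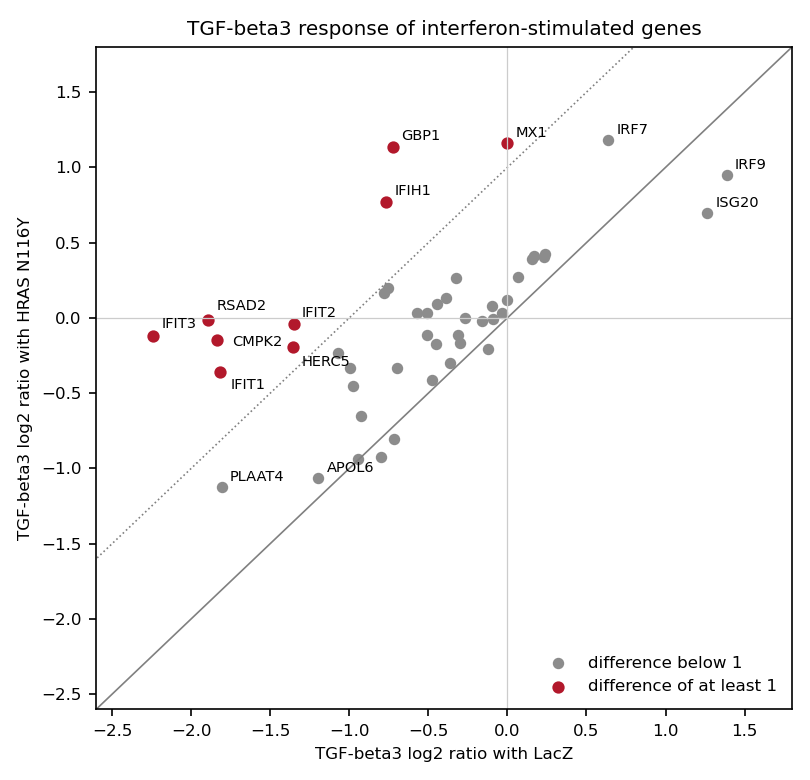
TGF-beta3 response (log2 ratio to no TGF-beta3) of each interferon-stimulated gene in LacZ cells (horizontal axis) against HRAS N116Y cells (vertical axis), 1 point per gene from single arrays, with a solid line of equal response, a dotted line at a difference of 1 and red points for the genes at or beyond it. IFIT1, IFIT2, IFIT3, RSAD2 and CMPK2 lie below -1 on the LacZ axis and between -0.36 and -0.017 on the HRAS N116Y axis, while PLAAT4 and APOL6 are below -1 on both.

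The siRNA pair was compared only within itself. On the p53 siRNA array 23 of 50 genes (46.0%) were at least 2-fold lower than on the control siRNA array and 0 higher, against 6.16% and 2.35% of 9062 genes. The log2 ratio was below 0 for 49 of the 50 genes, PARP12 being the exception at 0.043, with a median of -0.93 over the 50 and 0.022 over all genes. Of the 23 genes 5, GBP2, IFI27, IFI44L, MX1 and TRIM6, reached 50 in this pair on the control siRNA array alone and so had to be lower with p53 siRNA. Of the 45 genes that were bright enough on the adenovirus arrays, 19 were at least 2-fold lower.

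TRIM22 had a signal of 117 with p53 siRNA and 980 with control siRNA, a log2 ratio of -3.06. MX1, a GTPase that blocks incoming viral particles, had 20.1 and 146 on these arrays (-2.86), and IFIT2 had 420 with p53 siRNA and 2196 with control siRNA (-2.39). The next largest ratios were those of TRIM6, GBP2, GBP1, IFI6, a mitochondrial antiapoptotic protein, and XAF1, between -2.35 and -2.02. In these 8 genes the log2 ratio was below -2, and the share of all genes below that limit was not counted. These sizes depend on the probe set. On further probe sets the ratio was -1.67 and -0.73 for GBP1, -1.57 for GBP2, -1.39 for XAF1 and -1.997 for IFIT2.

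Transcription factors were lower too. IRF1 had 155 with p53 siRNA and 471 with control siRNA (-1.60), IRF9 had 141 and 330 on these arrays (-1.22), and IRF7 had 105 and 197 (-0.91). ISG15 had 637 with p53 siRNA and 1368 with control siRNA (-1.10), and UBE2L6 had 548 and 1210 (-1.14). PLAAT4, RSAD2, CMPK2, OAS1, OAS2, OASL, EPSTI1, SAMD9, IFIT3, IFI27 and IFI44L made up the rest of the 23, with ratios from -1.62 to -1.01. The genes that stayed nearest to level were PARP12, TRIM21, EIF2AK2 and ADAR, with log2 ratios from -0.069 to 0.043.

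Of the 14 genes that rose with HRAS N116Y against LacZ, 10 were at least 2-fold lower with p53 siRNA. Beside this, 19 of the 45 genes tested in that fit and 6.16% of all genes of the siRNA pair were. Among the 10, GBP2 and TRIM6 reached 50 in the siRNA pair on the control siRNA array alone and so had to be lower. The arrays of the siRNA pair lay above the 6 others in both ratios that follow RNA quality, by far more for actin than for GAPDH. Actin probe sets at the 3' end were 4.01 times as bright as those at the 5' end with p53 siRNA and 3.68 times with control siRNA, but 1.16 to 1.39 times on the 6 others, while the same ratio for GAPDH was 1.04 with p53 siRNA and 1.07 with control siRNA, and 0.933 to 0.981 on the 6 others. The summed signal of the leukocyte markers was 59.2 with p53 siRNA and 139 with control siRNA, of which HLA-DRA, also inducible by interferon-gamma, made up 0.80 and 52.99, and 7 of the 10 markers were below 20 on all 8 arrays. The part of these measures in the lower signals was not tested, and with 1 array a group the pair has no test.

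**Figure D5:**
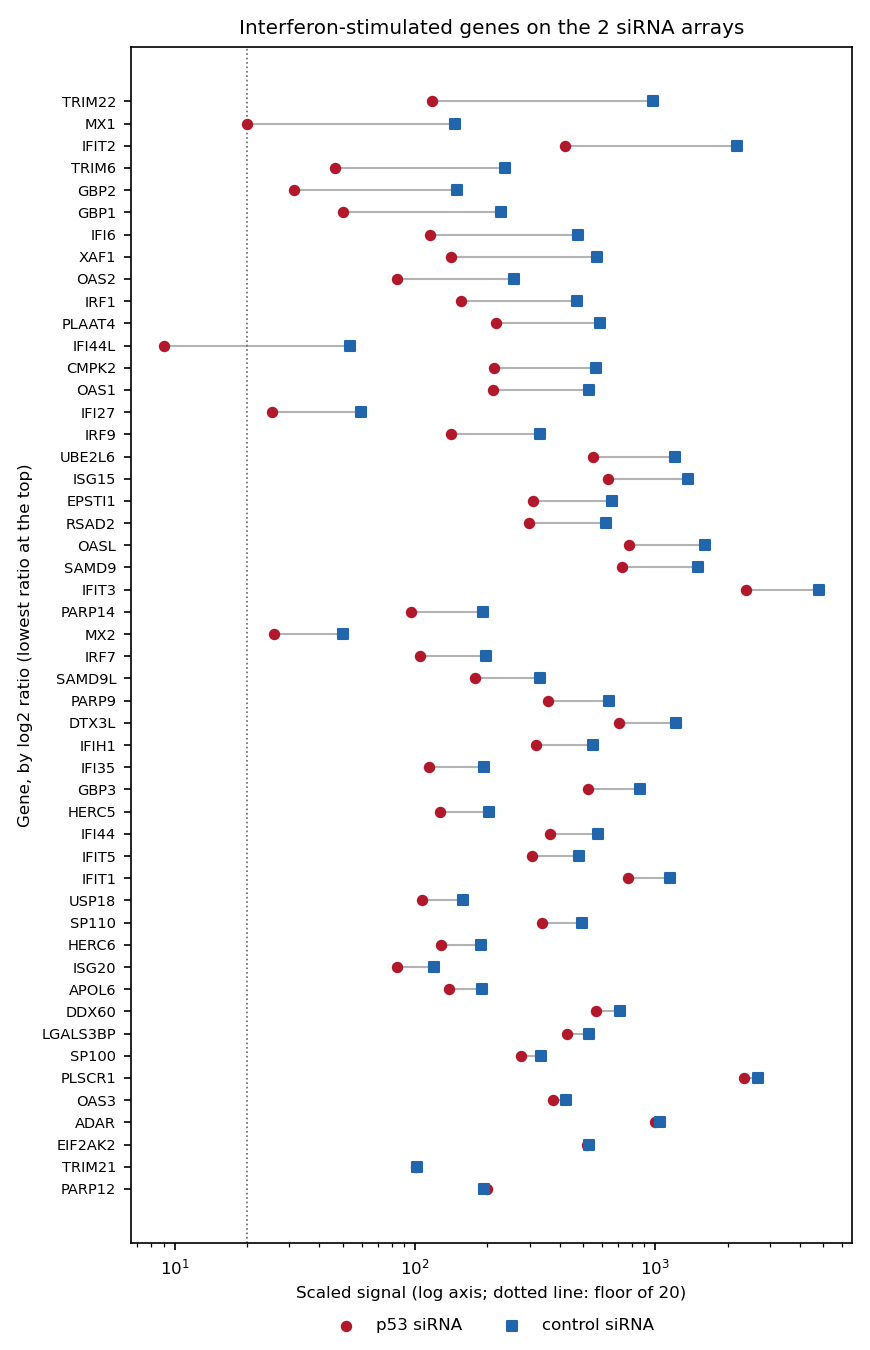
Scaled signal (log axis) of each of the interferon-stimulated genes with p53 siRNA (red circles) and control siRNA (blue squares), 1 array each, with genes ordered by log2 ratio and a dotted line at the floor of 20. The red circle is left of the blue square for all of the 50 genes but PARP12, and TRIM22, MX1 and IFIT2 at the top are farthest apart.

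Genes that act upstream of this set were counted in the same fits. Of all 8982 tested genes, 1.58% rose and 0.846% fell with HRAS N116Y against LacZ. With TGF-beta3, 16.3% rose and 17.4% fell. In the siRNA pair 6.16% of 9062 genes were at least 2-fold lower with p53 siRNA and 2.35% higher. The lists below are short, and their counts are not read as results about them. None of the 12 named interferon genes reached a signal of 50 on any array, and the highest value was 16.6, that of IFNL1 with HRAS G12V and TGF-beta3. Of 8 tested receptor chains, kinases and STATs, 0 changed with HRAS N116Y against LacZ and 2 rose with TGF-beta3, the kinase JAK1 by 0.56 and the receptor chain IFNGR2 by 0.42 on the log2 scale. IFNAR1, a chain of the type I receptor, had 37.2 with p53 siRNA and 110 with control siRNA, a log2 ratio of -1.56, and was the 1 of 8 measured genes of this list at least 2-fold lower there. It reached 50 in this pair on the control siRNA array alone and so had to be lower. Of 4 other IRF family and IRF2-binding genes tested, IRF2BP2 rose by 0.62 and IRF2 fell by 0.44 with TGF-beta3, and 0 changed with HRAS N116Y.

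Among 10 tested sensors of nucleic acid and their adaptors, TLR3, the endosomal sensor of double-stranded RNA, rose with HRAS N116Y and fell with TGF-beta3. It had 243 and 392 with HRAS N116Y with and without TGF-beta3, against 75.3 and 215 with LacZ (1.28 ± 0.21, adjusted p = 0.0127), and fell by 1.19 ± 0.18 with TGF-beta3 (adjusted p = 0.000507). The other called genes of that list were TICAM1 and MAVS, which rose with TGF-beta3 by 0.78 and 0.41, and IFI16, which fell by 0.55. Of 8 tested negative regulators, PIAS3 rose by 0.92 with TGF-beta3 and 0 changed with HRAS N116Y. On the siRNA arrays 1 of 9 measured genes of this list was at least 2-fold higher with p53 siRNA and 1 lower. PIAS2, of the same family as PIAS3, had 144 with p53 siRNA and 55.4 with control siRNA. SOCS3, a feedback inhibitor of JAK kinases, had 25.5 and 117 on these arrays. The second was its 1 signal of at least 50 on the 8 arrays, so SOCS3 had to be lower with p53 siRNA. CCL5, a chemokine for T cells and the 1 tested gene of the interferon-induced chemokines, had 598 and 171 with HRAS N116Y with and without TGF-beta3, against 32.7 and 33.7 with LacZ, and 149 with p53 siRNA, against 548 with control siRNA. It passed the filter of the fit through the HRAS N116Y arrays alone, so it had to be higher with that vector.

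The choice of probe set was checked on 22 genes that had 30 further probe sets at 50 on an array. The further probe set had the same sign of change as the one used in 28 of 30 cases for the siRNA pair, in 25 for TGF-beta3 and in 24 for HRAS N116Y against LacZ. The cases with opposite signs under TGF-beta3 were those of GBP1, GBP2 and SP100, whose changes on the probe set used were between -0.042 and -0.0014. For HRAS N116Y against LacZ they were those of EIF2AK2, IFI44, IFIT5, ISG20, PARP9 and PLSCR1, none of them called there. Some were not near 0: ISG20 had 0.53 on the probe set used and -0.31 on the other, and PARP9 0.49 and -0.12. IFI44 had -0.065 and 0.57, and PLSCR1 0.056 and -0.48. IFIT, OAS and GBP genes are families of similar sequence, and cross-hybridisation between their members was not tested.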

How the data were processed

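Biotin-labelled RNA of HaCaT cells was measured on 8 Affymetrix arrays, 1 per group, per the labels' protocols. Each probe set has 1 linear intensity in the deposited table, made by the authors with MAS5 5.0 per the submitters' processing notes, and its values show a trimmed mean of about 100 on each array. Genome build and detection calls are not given in the sources used here. Each array was rescaled to a 2% trimmed mean of 100, signals under 20 were raised to 20, and log2 was taken.

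Of 54675 probe sets, 41097 had 1 gene symbol in the platform annotation, 1801 had several and 11777 were unnamed here; 41043 were matched to RefSeq's gene table. The single-symbol probe set brightest on average over the 8 arrays stood for its gene. Vectors and TGF-beta were tested on 6 arrays by limma 3.58.1 (R 4.3.3), with vector and TGF-beta state as additive terms and a trended eBayes prior, for 8982 genes at 50 or more on at least 2 arrays. Rises and falls are changes whose Benjamini-Hochberg adjusted p is under 0.05. The fit leaves 2 residual degrees of freedom, in which noise and any interaction of these terms are mixed; the prior had 8.74, and residual SDs had a median of 0.152 (log2). As nothing says that the arrays came from separate cultures, the spread behind the p-values is that between these arrays and may be technical. Single pairs were counted where at least 2-fold apart, with 50 reached on 1 array of the pair, and differences of TGF-beta3 response at 1 or more on the log2 scale, both untested. The siRNA pair was kept apart from the adenovirus arrays.

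The fit was tested on simulated data. The genes followed and the related lists were chosen with earlier results of these data known. All the genes were counted by role; signals on the arrays compared are given for those with the largest called change of each role group in the HRAS N116Y against LacZ and TGF-beta3 fits, and for others that a comparison turns on. Alternatives were the normalization, the floor, an offset, the filter, the probe set rule, the prior, the arrays fitted and the fold. Promoters are RefSeq's on GRCh38.p14. One planned result of the siRNA arrays is not reported here.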

Additional observations from a re-analysis of the deposited data

Results flagged for a closer look

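Of 47 genes, 12 had a TGF-beta3 log2 ratio above 0 in HRAS N116Y cells and below 0 in LacZ cells, 0 had the opposite, and for 2 of the 12 these ratios differed by at least 1. The share of all genes with opposite signs was not counted, so the 12 are not read as a result about these genes. IFIH1, the RNA sensor MDA5, had a signal of 383 with TGF-beta3 and 224 without it in HRAS N116Y cells (log2 ratio 0.77), and 128 with TGF-beta3 and 218 without it in LacZ cells (-0.77), a difference of 1.54 on the log2 scale. GBP1, a guanylate-binding GTPase, had 564 with TGF-beta3 and 256 without it in HRAS N116Y cells (1.14), and 132 with TGF-beta3 and 218 without it in LacZ cells (-0.72), a difference of 1.86. In HRAS G12V cells the log2 ratio was -0.29 for IFIH1 and -0.48 for GBP1, the direction seen in LacZ cells. Each value is 1 array against 1 array, so the difference was not tested.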

How the results depend on the processing

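No change called in the fits turned its direction under any alternative that could be run. Changes that were not called were not followed there. Of 182 alternative counts, 151 stayed within 1.5 times the value given. With HRAS N116Y against LacZ, 14 genes rose; 22 did in a fit of the 4 arrays of these vectors, 8 without a trend, 8 after quantile normalization, 5 when probe sets of a gene were averaged and 1 without the filter. Against HRAS G12V, 18 rose; 11 did without a trend and 9 without the filter. The fit of 4 arrays called 1 gene up and 1 down for HRAS G12V against LacZ, in place of 0. With TGF-beta3, 17 genes fell and 5 rose; 10 fell without the filter, and 2 fell and 2 rose without the vector as a term. Leaving out 1 vector's pair of arrays gave 13 to 27 falls and 3 to 5 rises. A limit of 1.5-fold in place of 2-fold raised the higher genes of HRAS N116Y against LacZ to 15 without TGF-beta3 and 30 with it, and the lower genes with p53 siRNA to 35. For HRAS G12V against LacZ it gave 2 higher and 3 lower genes without TGF-beta3 and 1 higher and 3 lower with it. For TGF-beta3 it gave 6 higher and 6 lower in HRAS N116Y cells, 4 and 15 in HRAS G12V cells, and 19 lower in LacZ cells. With log2(signal + 20), 3 genes were at least 2-fold higher with HRAS N116Y than LacZ without TGF-beta3, and with TGF-beta3 1 was higher and 1 lower in HRAS N116Y cells, 1 higher in HRAS G12V cells and 1 higher in LacZ cells. Except where fewer genes, arrays or terms entered by construction, the cause was not tested. The alternatives that kept the 6 arrays and both terms all kept 10 of the 22 TGF-beta3 calls, 8 of 18 between the HRAS vectors and 1 of 14 against LacZ. Genes at the floor on all 6 arrays had no spread and were left out of the fit without a filter. No paired analysis was possible because the groups hold 1 array each, so that no groups share more than 1 replicate number; the vector term already sets treated against untreated arrays within each vector. The alternatives for the difference of TGF-beta3 responses were chosen after seeing the data. The number of arrays and the signal over background limit the precision, most for MX1, GBP2, IFI27 and IFI44L near the floor.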

Other observations

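A further list of 24 interferon-induced genes, of which 20 were tested, held the genes of antigen processing. With HRAS N116Y against LacZ 3 rose and 0 fell (1.58% and 0.846% of all tested genes did): RNF213, a large ubiquitin ligase, by 1.30 ± 0.23 on the log2 scale (SE, n = 6 arrays, limma adjusted p = 0.0159), PSMB9, a subunit of the immunoproteasome, by 0.97 ± 0.16 (adjusted p = 0.0111) and TAP1, a peptide transporter, by 0.82 ± 0.15 (adjusted p = 0.0163). TAP1 had 631 with TGF-beta3 and 617 without it on the HRAS N116Y arrays, against 327 and 384 on the LacZ arrays. With HRAS G12V against LacZ 0 of the 20 were called. With TGF-beta3, 11 of the 20 fell and 2 rose, against 17.4% and 16.3% of all tested genes. LY6E, a lipid-anchored surface protein that blocks viral entry, fell by 1.64 ± 0.19 (adjusted p = 0.000116), TRIM14 by 0.84 and the immunoproteasome subunit PSMB8 by 0.83, while HELZ2 rose by 0.94 and SLFN5 by 0.78. HELZ2 passed the filter through arrays with TGF-beta3 alone (67.3 with HRAS N116Y and 50.8 with HRAS G12V), so the filter favoured its rise. LY6E had 155 with HRAS N116Y, 187 with HRAS G12V and 237 with LacZ under TGF-beta3, against 784, 434 and 610 without it, so its low values included the HRAS N116Y array, unlike those of IFIT3. On the siRNA arrays 7 of the 22 genes measured there were at least 2-fold lower with p53 siRNA and 0 higher. Of all genes of that pair, 6.16% were lower and 2.35% higher. IFITM1, which keeps viruses from fusing, had 1124 with p53 siRNA and 3114 with control siRNA. APOL1 had 19.3, below the floor, and 115 on these arrays. Among the 7, APOL1 and NLRC5 passed the filter of this pair through the control siRNA array alone and so had to be lower.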
